A study of Mus musculus with 82 samples.

Results

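Cadherins and protocadherins are cell surface proteins that bind other cadherins in the presence of calcium. The genes described here are the 92 protein-coding genes of the deposited expression table whose symbols begin with Cdh and a number or with Pcdh, out of 27515 genes counted. Outside the protocadherin clusters lie 35 of them, and the other 57 form the alpha, beta and gamma clusters on chromosome 18, with 14 Pcdha, 22 Pcdhb and 21 Pcdhg genes. Together the 92 genes held 0.236% of all counts.

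They were measured in 82 laser-captured pieces of the suprachiasmatic nucleus (SCN), the body's master circadian clock in the hypothalamus, from C57BL/6 mice aged 8 weeks for which the labels name no treatment. Sections were stained with cresyl violet and cut along a hexagonal grid (40 µm at the widest radius), with no marker used to pick hexagons, and each library was made with Smart-seq2 and Tn5. The labels place the hexagons at 9 anterior-posterior coordinates, called sections here. Sections 47, 95, 143, 191, 239, 287, 335, 383 and 431 hold 4, 6, 12, 14, 12, 14, 13, 6 and 1 hexagons. All hexagons share strain and age, no treatment is named for any, and the labels set them apart by position. They also differ in library depth and in the letter that opens their description, given below. The dorsal-ventral coordinate runs over 301 to 917 and the medial-lateral coordinate over 1100 to 1517. The labels give no unit for them and do not say which end of an axis is dorsal, medial or anterior. They name no animal, so hexagons may share an animal, and p-values taken over hexagons, which measure the spread between hexagons alone, are then too small. A hexagon can hold several cells and parts of cells, and fewer cells of a type and less RNA per cell cannot be told apart.

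Library totals ran from 11905 to 2843366 counts with a median of 542267.5, and 2549 to 13419 genes were detected per hexagon. In 5 libraries the total lay below the median divided by 3. Gad1 and Gad2, which make the transmitter GABA of SCN neurons, had counts in 82 of 82 hexagons, the SCN peptides Avp and Vip in 80 and 62, and Slc17a7, a marker of cortical glutamatergic neurons, in 0. The other glutamatergic marker listed, Slc17a6, had counts in 29. The description of each library opens with a letter from A to H, and the labels do not say what it marks. It is taken here, as an assumption, to mark sets of libraries handled together (library set). It changed almost in step with the section, so a library set and a section cannot be told apart in most comparisons between sections. Where a section holds more than 1 letter, the later letter lies toward larger medial-lateral coordinates. Library set is therefore partly mixed with the medial-lateral coordinate as well. The count table and the expression per length (RPKM) are the authors' values. Levels of 1 gene across hexagons are given as CPM, counts scaled to a common library size with TMM factors, and levels between genes as RPKM.

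Classical cadherins of type I and type II join neighbouring cells and are tied to the actin skeleton through catenins. The delta-1 and delta-2 protocadherins bind weakly by themselves and act in axon growth, sorting and synapse formation, and several of the delta-2 group recruit the WAVE complex, which drives branched actin. The clustered protocadherins are made by promoter choice: in Pcdha and Pcdhg, each variable first exon is spliced to the same constant exons, so that neurons carry different combinations that mark a cell's own branches, while Pcdhb genes stand alone. C-type genes at the end of the alpha and gamma clusters are expressed more steadily from cell to cell than the others.

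Of the 92 members, 62 had 10 or more counts in 10 or more hexagons and were tested, among 11469 genes that passed this filter. They were 24 of the 35 unclustered members and 5 of the Pcdha, 13 of the Pcdhb and 20 of the Pcdhg genes. The 3 unclustered members of highest median level per length had nearly the same medians. Pcdh9, a delta-1 protocadherin at chr14:93013410-93890679 (GRCm38, minus strand), had a median of 25.3 RPKM over the 82 hexagons, with a lowest value of 0 and a highest of 78.2 RPKM. Cdh13, or T-cadherin, which is held in the membrane by a lipid anchor and has no cytoplasmic tail (chr8:118283733-119324921, plus strand), had a median of 24.7 RPKM, from 0 to 55.8 RPKM. Cdh2, or N-cadherin, the main classical cadherin of neural tissue (chr18:16588877-16809246, minus strand), had a median of 24.6 RPKM, from 6.43 to 43.2 RPKM. These 3 ranges overlap almost wholly, so no order among them is given.

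Next came Pcdh19, a delta-2 protocadherin that forms a complex with N-cadherin in zebrafish and whose human gene is linked to an X-linked epilepsy, with a median of 13.2 RPKM and a range of 1.07 to 56.3 RPKM (chrX:133582860-133688987, minus strand). Cdh18, a type II cadherin, had a median of 10.6 RPKM, from 0 to 40.0 RPKM. Pcdh11x, the X-linked delta-1 protocadherin, had a median of 9.52 RPKM, from 0 to 38.8 RPKM. Pcdh19 and Cdh2 were the only members with a count in all 82 hexagons, the shallowest included. The medians of the next members were 7.71 RPKM for Pcdh10, 7.41 RPKM for Pcdh20, 5.86 RPKM for Pcdh17, 5.55 RPKM for the type II cadherin Cdh12 and 4.25 RPKM for Cdh22. The spread of each of these over hexagons is wider than the steps between their medians. At the low end of the tested unclustered members, Pcdh15 had a median of 0.675 RPKM and Cdh8 a median of 0, with counts in 23 hexagons.

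**Figure D1:**
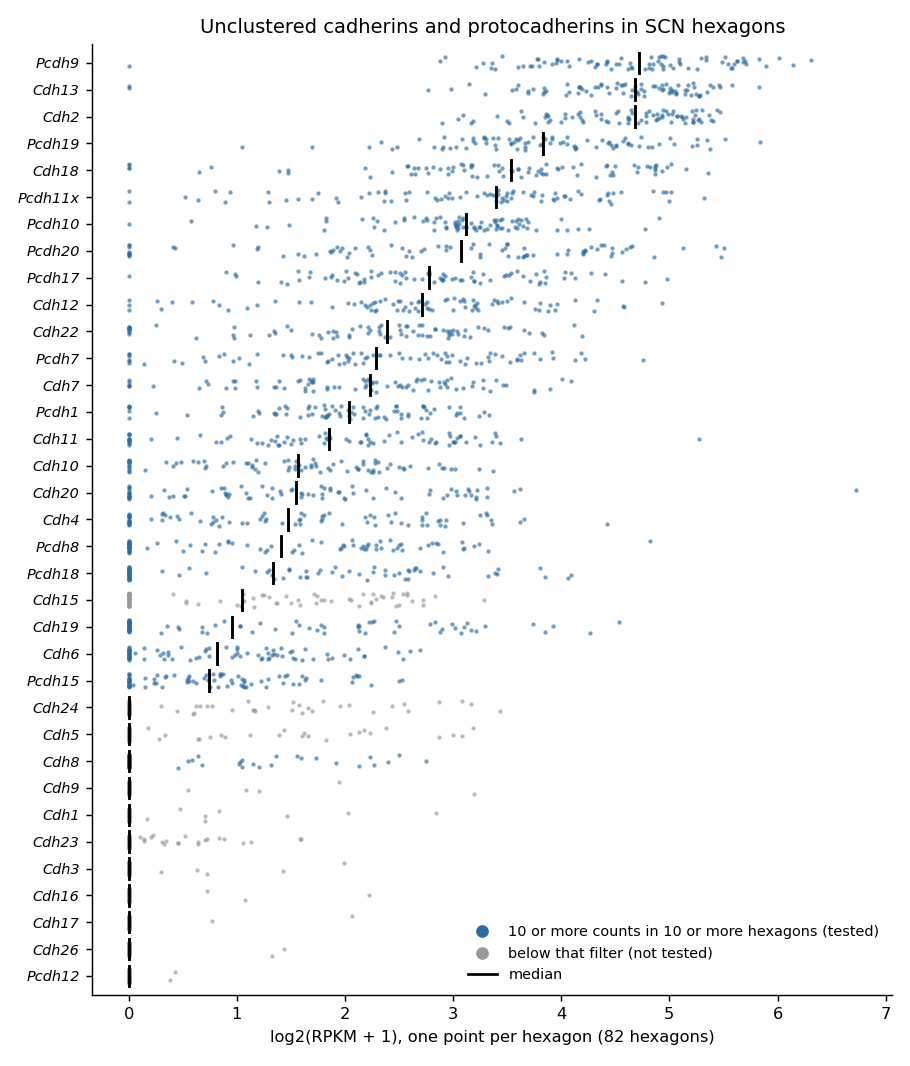
Each row is an unclustered member and each point a hexagon, on a log2(RPKM + 1) axis, with black bars for the medians and members that failed the count filter in grey. Pcdh9, Cdh13 and Cdh2 head the order with medians of 25.3, 24.7 and 24.6 RPKM, and the point far to the right in the row of Cdh20 is the library of 11905 counts.

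The 11 unclustered members below the filter included cadherins best known from other tissues. Cdh1, the epithelial E-cadherin, had counts in 8 hexagons, Cdh3 (P-cadherin) in 5, Cdh16 in 3, and Cdh17 and Cdh26 in 2 each. Also below the filter, the type II cadherin Cdh9 had counts in 5 hexagons. Cdh23, a part of the hair cell tip link, had counts in 21 hexagons, Cdh24 in 31 and the muscle cadherin Cdh15 in 48. Of the endothelial cadherins, Cdh5 (VE-cadherin) had counts in 24 hexagons with a highest level of 34.2 CPM, and Pcdh12 had 6 counts in 2 hexagons. The summed level of 8 endothelial markers was above 0 in all but 1 hexagon, with a median of 143 CPM and a highest value of 1185 CPM. The level of Cdh5 followed that sum with r = 0.42 over the 82 hexagons on the log2(CPM + 1) scale, which share sections and depth. Pcdh15, which oligodendrocyte precursors express, ran weakly with the summed precursor markers (r = 0.22). Cdh20 reached 164 CPM in hexagon 4 of section 191, the library of 11905 counts, and its median over all hexagons was 7.89 CPM.

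Position was tested with edgeR's quasi-likelihood test on counts, as a slope along each coordinate within sections, as a joint test of both coordinates with their squares and product, and as differences between the 8 sections with 4 or more hexagons. A member was called at a Benjamini-Hochberg adjusted p under 0.05 over all 11469 genes, and slopes are log2 changes per 100 coordinate units. Along the dorsal-ventral coordinate 4 of the 62 members were called, against 0.793% of all genes tested. Higher at larger coordinates were 3 of them, against 0.506% of all genes, and lower was 1, against 0.288%. Along the medial-lateral coordinate 1 member was called, against 1.38% of all genes. It was higher at larger coordinates, against 0.82% of all genes, and no member was called lower, against 0.558%. The joint test called 4 members, against 2.03% of all genes, and the section differences called 5, against 4.1% of all genes. The members called in any comparison were 6: Pcdh19, Cdh2, Pcdhga2, Pcdh11x, Pcdh17 and Pcdh20. At an unadjusted p under 0.05 there were 10 members along the dorsal-ventral coordinate, against 8.46% of all genes, and 12 along the medial-lateral one, against 11.7%. There were 10 in the joint test, against 10.7%, and 6 between sections, against 15.3%.

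The regions around the starts of Pcdh19, Pcdh20 and Pcdh17 are shown because these 3 genes differed between sections, the first 2 in the opposite sense to the third. Each window holds 250 bases before and 50 bases after the RefSeq start (GRCm38.p6), 5′ to 3′ on the gene's strand. The regions are chrX:133688944-133689243 on the minus strand, chr14:88471347-88471646 on the minus strand and chr14:84443313-84443612 on the plus strand. Capitals mark CCAAT or GGGCGG on either strand, so that ATTGG and CCGCCC are reverse-strand matches.
Pcdh19: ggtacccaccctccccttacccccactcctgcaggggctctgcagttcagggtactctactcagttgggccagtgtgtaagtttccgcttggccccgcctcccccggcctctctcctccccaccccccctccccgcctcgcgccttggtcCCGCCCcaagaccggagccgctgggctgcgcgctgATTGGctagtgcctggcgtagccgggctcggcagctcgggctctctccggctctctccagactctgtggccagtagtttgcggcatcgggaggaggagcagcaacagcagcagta
Pcdh20: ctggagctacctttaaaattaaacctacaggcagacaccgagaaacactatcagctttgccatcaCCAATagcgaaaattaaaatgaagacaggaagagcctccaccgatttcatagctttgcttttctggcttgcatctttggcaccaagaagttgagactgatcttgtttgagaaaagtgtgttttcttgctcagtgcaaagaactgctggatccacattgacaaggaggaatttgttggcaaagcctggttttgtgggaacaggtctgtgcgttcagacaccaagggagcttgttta
Pcdh17: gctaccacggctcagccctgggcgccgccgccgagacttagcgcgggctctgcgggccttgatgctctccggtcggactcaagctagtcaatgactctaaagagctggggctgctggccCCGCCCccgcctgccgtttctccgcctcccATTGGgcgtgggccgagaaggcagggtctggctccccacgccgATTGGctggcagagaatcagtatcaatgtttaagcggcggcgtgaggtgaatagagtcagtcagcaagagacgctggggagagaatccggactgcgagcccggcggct

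The table held a window for 22 of the 91 member symbols, 25 windows in all. The circadian E-box CACGTG, the cAMP response element TGACGTCA, the D-box TTATGTAA and the homeodomain core TAATTA were searched on both strands, and none lay in the 3 windows shown. Over all 32851 windows of this length, 7.15% held the E-box, 1.79% the cAMP response element, 0.938% the D-box and 5.29% the homeodomain core. CCAAT and GGGCGG were added after the sequences had been seen. The Pcdh17 window held CCAAT on the reverse strand with its first base at -101 and at -58 from the start, and the Pcdh19 window at -65. The Pcdh20 window held CCAAT on the forward strand at -185. GGGCGG lay on the reverse strand at -131 in Pcdh17 and at -100 in Pcdh19. CCAAT was in 37.4% and GGGCGG in 35.7% of all windows. The GC content was 67.7% for Pcdh19, 43.7% for Pcdh20 and 65.0% for Pcdh17, against a median of 52.7%. A match is a description and not a site, and the absence of a match says only that these letters are not in this window.

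Along the dorsal-ventral coordinate Pcdh19 and Cdh2 were higher at larger coordinates in most sections, and both calls held in 20 of 20 alternative settings. Pcdh19 had 38.9, 129 and 287 CPM (lowest, median and highest) in the low band of hexagons, at coordinates 301 to 578 (n = 27). In the middle band, at 579 to 739 (n = 28), it had 11.3, 131 and 381 CPM, and in the high band, at 743 to 917 (n = 27), 45.1, 215 and 475 CPM. The bands overlapped, and 9 of the 27 hexagons of the high band lay above the highest of the low band. Within sections its slope was 0.25 ± 0.044 (SE, n = 82 hexagons, adjusted p = 1.52e-04), with a positive slope in 7 of 8 sections. Split at the middle of each section, the hexagons at larger coordinates had a median of 198 CPM and those at smaller coordinates 134 CPM (40 hexagons each), and the median was higher at larger coordinates in 6 of 8 sections.

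The difference in medians was largest, among the 8 sections, in section 239. There the 6 hexagons at larger coordinates had 99.1, 358 and 475 CPM of Pcdh19 (lowest, median and highest), and the 6 at smaller coordinates 56.2, 159 and 215 CPM. In section 383 the medians went the other way, with 104 CPM in the 3 hexagons at larger coordinates and 140 CPM in the 3 at smaller ones.

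Cdh2 had 32.8, 161 and 270 CPM (lowest, median and highest) in the low dorsal-ventral band, 65.6, 221 and 354 CPM in the middle band and 79.0, 257 and 353 CPM in the high band. The 32.8 CPM came from the library of 11905 counts and rests on few counts. The bands overlapped here too, and 10 of 27 hexagons of the high band lay above the highest of the low band. Its slope was 0.19 ± 0.039 (SE, n = 82, adjusted p = 0.00267), positive in 8 of 8 sections. Split within sections, the median was 242 CPM in the hexagons at larger coordinates and 171 CPM in those at smaller coordinates, higher at larger coordinates in 7 of 8 sections. In section 143 the medians were 271 CPM at larger and 117 CPM at smaller coordinates, and in section 287 they were 212 and 211 CPM.

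Pcdh11x ran the other way along the same coordinate. It had 0, 134 and 304 CPM (lowest, median and highest) in the low band, 7.86, 178 and 544 CPM in the middle band and 0, 70.9 and 430 CPM in the high band. The bands overlapped over most of their range, and the highest values of the middle and high bands came from section 95. Its slope was -0.33 ± 0.069 (SE, n = 82, adjusted p = 0.00260), and it was negative in all sections but 2. Within sections, the median was 95.9 CPM at larger and 146 CPM at smaller coordinates, lower at larger coordinates in 6 of 8 sections. In section 239 the 6 hexagons at larger coordinates had 10.03, 24.0 and 130 CPM, and the 6 at smaller coordinates 31.0, 120 and 146 CPM. The call was lost without section 239 (adjusted p = 0.105) and without section 335 (adjusted p = 0.0606), with slopes of the same sign.

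Pcdhga2, the second gene of the gamma-A group (chr18:37668953-37841870, plus strand), was low. It was at 0 in 16 of 27 hexagons of the low band, 8 of 28 of the middle band and 7 of 27 of the high band. Its highest values in these bands were 28.7, 59.7 and 108 CPM, and its medians 0, 6.10 and 15.1 CPM. The slope was 0.70 ± 0.18 (SE, n = 82, adjusted p = 0.0292), positive in 7 of 8 sections. Of its 4689 exon bases, 2116 are shared with other genes of the cluster, so reads may be split between them. Its slope was 0.57 to 0.95 over 20 alternatives. The call was lost in 6 of them, namely with library set as a factor (slope 0.68, adjusted p = 0.0521), without the low-depth libraries (slope 0.69, adjusted p = 0.0509) and without section 191 (adjusted p = 0.273), 335 (0.230), 143 (0.209) or 239 (0.0898).

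Levels of the SCN peptides are set beside these slopes, and the differences of their sum between bands were not tested. The summed level of Vip, Avp, Nms, Grp, Prok2 and Cck had medians of 964, 1022 and 2279 CPM in the low, middle and high bands, with ranges of 0 to 3084, 67.7 to 6961 and 413 to 17454 CPM. Of these 6 genes 1, Vip, had a called dorsal-ventral slope (1.54, adjusted p = 1.39e-09), and each had counts in 52 or more hexagons. Slopes of the others, not called, were -0.27 for Avp, 0.06 for Nms, 0.28 for Grp, 0.16 for Prok2 and 0.14 for Cck. The highest level of Vip was 16903 CPM and that of Avp, the next, 1126 CPM, so the highest sums are mostly Vip. Over the 82 hexagons, the log2(CPM + 1) level of Cdh2 ran with the peptide sum at r = 0.64, of Pcdh20 at 0.49 and of Pcdh19 at 0.43. Without the 5 low-depth libraries these were 0.55, 0.46 and 0.57. Pcdh11x had r = -0.30 with the peptide sum over all hexagons and -0.74 without the 5 low-depth libraries, and Pcdh17 had -0.14 and -0.66. Of the markers of other cell types, 1 gene was called along this coordinate, the erythrocyte gene Hbb-bt (slope 1.23, adjusted p = 0.0131). The part of cells rich in Vip or other peptides and of blood in the slopes of the members was not tested.

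**Figure D2:**
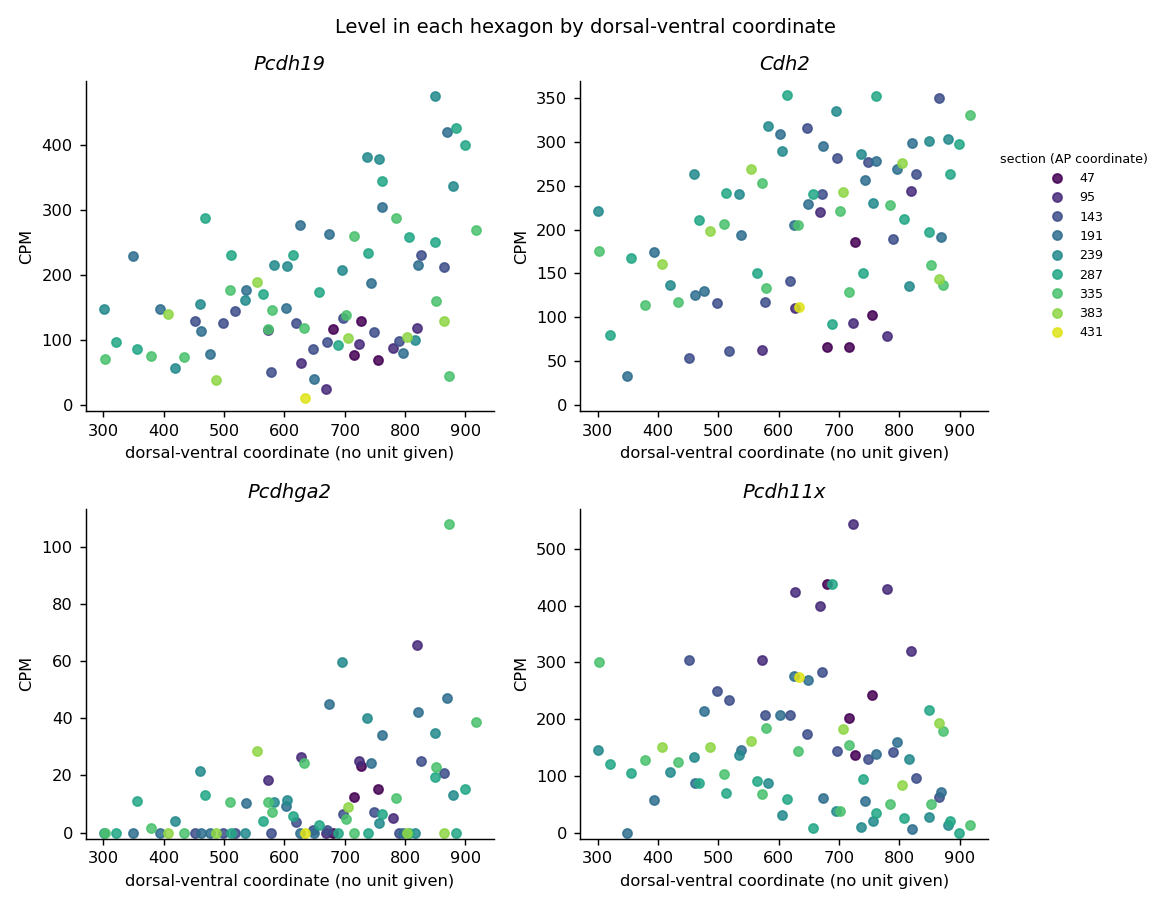
CPM of the 4 members with a called dorsal-ventral slope is plotted against the dorsal-ventral coordinate, which has no unit, with a point for each of 82 hexagons coloured by section. Values of Pcdh19 above 287 CPM and of Cdh2 above 270 CPM occur in the middle and high bands and not in the low one, and most values of Pcdhga2 in the low band are 0.

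Pcdh20 and Pcdh17 leaned along this coordinate without a call. The first, Pcdh20, a protocadherin outside the delta groups (chr14:88464743-88471396, minus strand), had medians of 17.9, 55.5 and 61.9 CPM in the low, middle and high bands. Its slope was 0.33 ± 0.105 (SE, n = 82, adjusted p = 0.154). Within sections the hexagons at larger coordinates had a median of 62.6 CPM and those at smaller coordinates 26.4 CPM, higher at larger coordinates in 7 of 8 sections. DESeq2 called the slope (adjusted p = 0.0248), as did edgeR without section 335 (adjusted p = 0.0198). Pcdh17, a delta-2 protocadherin (chr14:84443563-84539002, plus strand), had a slope of -0.19 ± 0.061 (adjusted p = 0.154), which was called without section 383 (adjusted p = 0.0106) and without the count filter (adjusted p = 0.0493). Within sections the hexagons at larger coordinates had a median of 74.5 CPM of Pcdh17 and those at smaller coordinates 82.7 CPM, and the median was higher at larger coordinates in 3 of 8 sections.

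Along the medial-lateral coordinate Pcdh11x (chrX:120290259-120910619, plus strand) was the only member called. It had 0, 138 and 399 CPM (lowest, median and highest) at coordinates 1100 to 1228 (n = 27), 0, 99.8 and 544 CPM at 1236 to 1342 (n = 28) and 20.2, 160 and 438 CPM at 1348 to 1517 (n = 27). These bands overlap and do not rise in order. With the dorsal-ventral coordinate in the same fit its slope was 0.40 ± 0.094 (SE, n = 82, adjusted p = 0.0110), positive in 7 of 8 sections. Without that adjustment the hexagons at larger coordinates had a median of 140 CPM and those at smaller coordinates 129 CPM, and the median was higher at larger coordinates in 4 of 8 sections. The coordinates were correlated within sections (r = 0.27 over 81 hexagons, which share sections). The call was lost with library set as a factor (slope 0.18, adjusted p = 0.673) and without section 287 (slope 0.22, adjusted p = 0.319), 335 (adjusted p = 0.103) or 239 (adjusted p = 0.0701). Library set partly follows the medial-lateral coordinate within sections, so set and position cannot be fully told apart in this slope. Markers of other cell types called along this coordinate were the astrocyte gene S100b (slope 0.27, adjusted p = 0.0417) and the meningeal genes Dcn (-1.87, adjusted p = 0.00606) and Slc6a13 (-2.01, adjusted p = 1.35e-04), and their part in the slope of Pcdh11x was not tested. In section 287 the hexagon at medial-lateral coordinate 1507 had 438 CPM, and the other 13 of that section lay below it.

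Other members differed along this coordinate by amounts that did not pass the test. Pcdh9 had a medial-lateral slope of 0.24 (adjusted p = 0.174), with a median of 204 CPM at larger and 138 CPM at smaller coordinates within sections. Pcdh7, also of the delta-1 group, had a slope of 0.36 (adjusted p = 0.217). Cdh18 had higher medians at larger coordinates in 8 of 8 sections, 57.3 CPM at larger and 40.2 CPM at smaller coordinates, with a slope of 0.13 (adjusted p = 0.797). Of the 24 unclustered members 18 had positive medial-lateral slopes, with a median of 0.12. Negative slopes had 5 of 5 Pcdha, 10 of 13 Pcdhb and 14 of 20 Pcdhg genes. Over all genes tested 5587 slopes were positive and 5882 negative, with a median of -0.004.

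**Figure D3:**
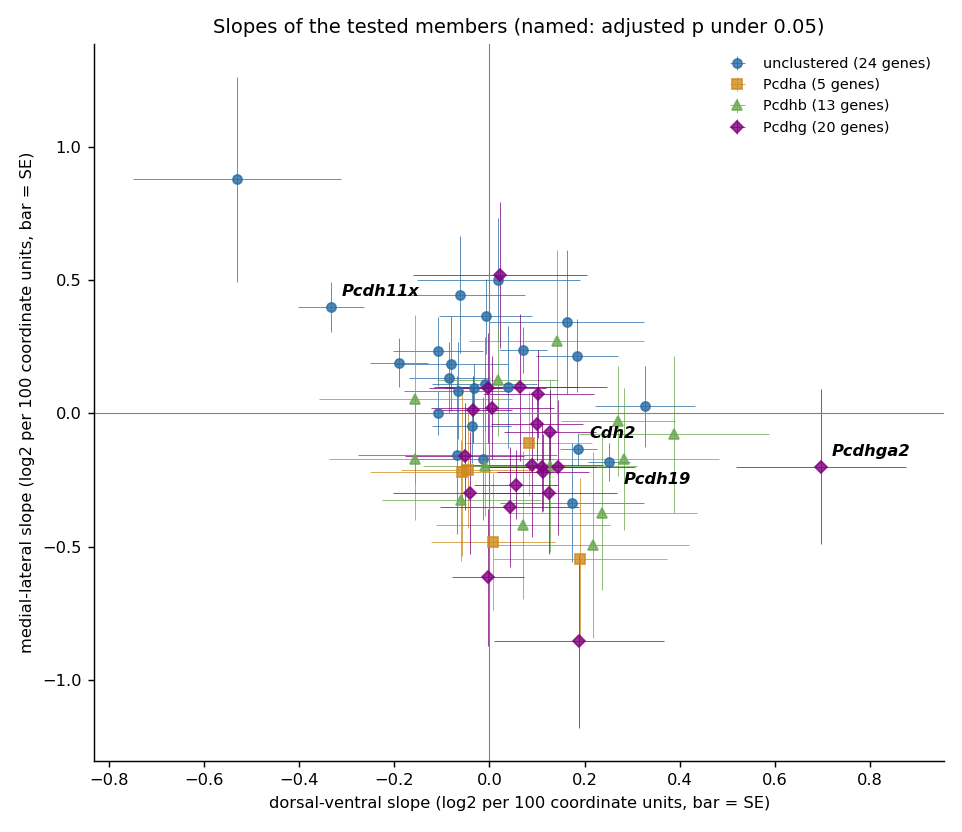
Each of the 62 tested members is a point at its dorsal-ventral slope (horizontal) and medial-lateral slope (vertical), both log2 per 100 coordinate units with bars for the SE, and shapes mark unclustered, Pcdha, Pcdhb and Pcdhg genes. The named points had an adjusted p under 0.05 in either slope, and the unclustered point at the upper left is Cdh8, with slopes of -0.53 and 0.88 and wide errors (adjusted p = 0.401 and 0.309).

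In the joint test of both coordinates with their squares and product, the members called were those with a dorsal-ventral call: Pcdh11x (adjusted p = 2.2e-04), Pcdh19 (4.3e-04), Pcdhga2 (0.0124) and Cdh2 (0.0153). The calls of Pcdh11x and Pcdh19 held in 20 of 20 alternatives, that of Cdh2 was lost without section 287 (adjusted p = 0.207), and that of Pcdhga2 was lost without section 191 (0.171), 143 (0.118), 335 (0.114) or 239 (0.0914).

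Between sections, 5 of the 24 unclustered members and 0 of the 38 clustered ones were called by edgeR, against 4.1% of all genes. Hexagons were the unit of this test and those of a section share its tissue, so the p-values between sections are too small. Among the clustered ones 1 had an unadjusted p under 0.05 in edgeR, and DESeq2 called 0. The highest median of Pcdh19, Cdh2 and Pcdh20 lay in section 239 or 287, and so did the lowest median of Pcdh11x and Pcdh17. The other medians were not all in order, since the next highest was in section 383 for Cdh2 and in section 143 for Pcdh20. Medians of Pcdh19 in sections 47, 95, 143, 191, 239, 287, 335 and 383 were 96.8, 90.7, 126, 182, 211, 232, 139 and 116 CPM (adjusted p = 8.96e-04). Medians of Cdh2 in the same sections were 84.5, 102, 215, 217, 275, 212, 176 and 221 CPM (adjusted p = 0.0229). Medians of Pcdh20 were 8.30, 18.04, 90.5, 55.9, 58.9, 100, 15.5 and 16.3 CPM (adjusted p = 0.00271). Hexagons of the sections overlapped for each of the 3 genes, since in section 287 Pcdh19 ranged over 86.6 to 425 CPM, Cdh2 over 80.1 to 354 CPM and Pcdh20 over 27.7 to 239 CPM.

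Medians of Pcdh11x in the 8 sections, in the same order, were 223, 412, 190, 113, 63.3, 78.2, 124 and 157 CPM (adjusted p = 1.61e-05). The 6 hexagons of section 95, of highest median, had 304 to 544 CPM, and the 12 of section 239, of lowest median, had 10.03 to 146 CPM. These sections, picked for their medians, did not overlap, and they differ in library set too. The share of all genes that part them was not computed. Medians of Pcdh17 were 241, 184, 109, 74.1, 52.4, 47.6, 94.2 and 72.0 CPM (adjusted p = 0.00135). The 4 hexagons of section 47 had 86.3, 133, 405 and 350 CPM of Pcdh17, while those of section 287 lay between 26.2 and 138 CPM. The same 4 hexagons had 136, 243, 438 and 202 CPM of Pcdh11x, 128, 69.1, 117 and 76.4 CPM of Pcdh19, and 186, 102, 65.6 and 66.5 CPM of Cdh2. Pcdh20 was at 0 in 2 of them and had 16.6 and 28.1 CPM in the others.

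With library set as a factor all 5 section calls were lost (adjusted p from 0.680 to 1.00), as were those of all other genes, since 0 of 11469 genes was then called, and section and library set cannot be told apart. The call of Cdh2 was also lost without section 47 (adjusted p = 0.153), 95 (0.0917) or 239 (0.0717) or without hexagon 3 (0.0588) or hexagon 4 (0.0658) of section 47, and that of Pcdh20 without section 287 (0.0551). The peptide sum had its highest medians in sections 239 and 287. Its medians were 396, 554, 735, 1022, 2284, 3203, 1280 and 1277 CPM from section 47 to 383. Between sections 3 of the 6 peptide genes were called, Vip, Grp and Prok2. Of 8 astrocyte markers 6 were called between sections, against 4.1% of all genes. Their sum had its highest median in section 47 and its lowest in section 239, with medians of 4944, 3286, 3231, 3293, 2818, 3231, 4466 and 4391 CPM from section 47 to 383. Over the hexagons the astrocyte sum had r = 0.16 with Pcdh11x and 0.27 with Pcdh17, and without the 5 low-depth libraries 0.04 and 0.15. It had r = -0.21 with Pcdh19, -0.24 with Pcdh20 and -0.11 with Cdh2, and without those libraries -0.19, -0.35 and -0.26. Also called were 1 of 3 GABA neuron markers (Slc32a1) and 2 of 3 tested meningeal fibroblast markers (Dcn and Slc6a13). Of the 2 glutamatergic markers Slc17a7 was at 0 throughout, and Slc17a6 was not called between sections (adjusted p = 0.171). Their sum had r = 0.15 with Pcdh17 and 0.12 with Pcdh11x, and without the low-depth libraries 0.46 and 0.29. The part of these marker lists in the section differences was not tested.

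**Figure D4:**
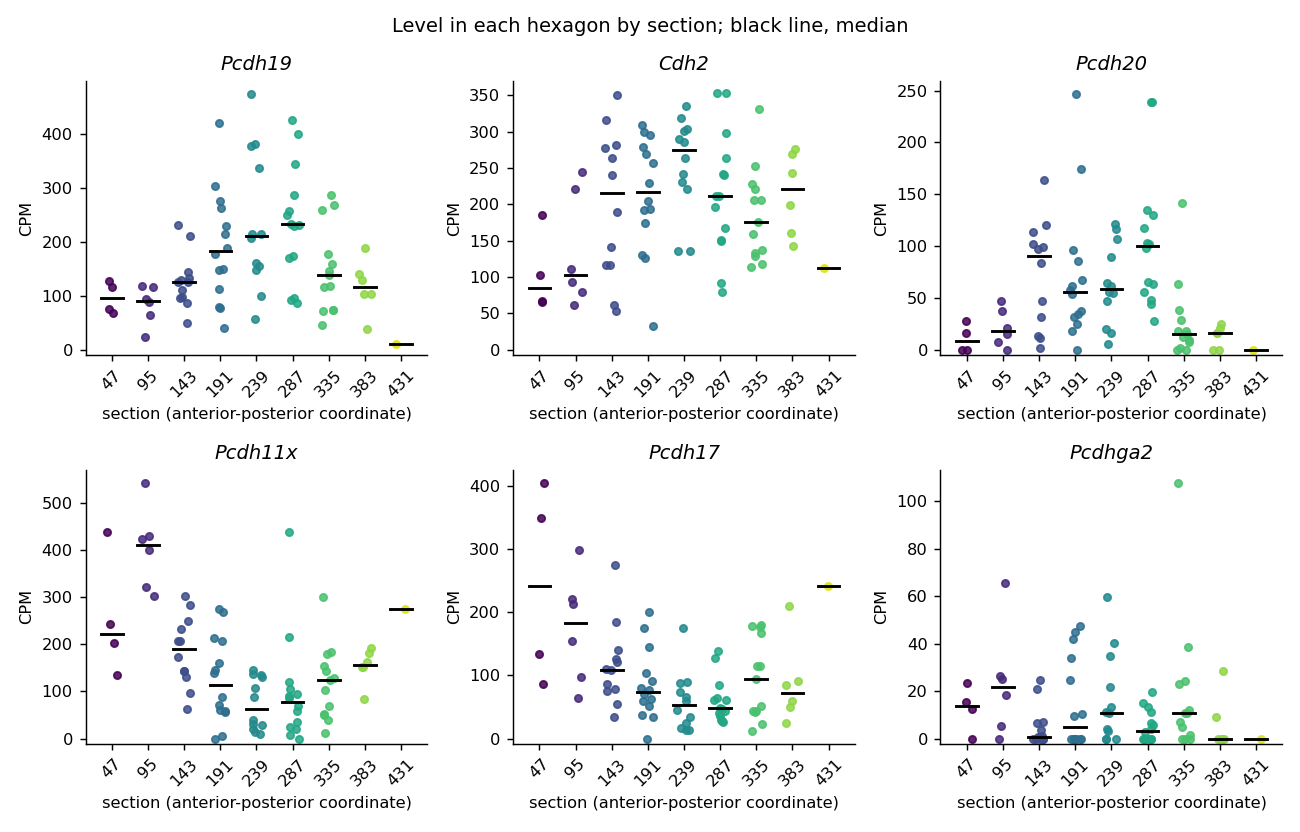
CPM in each hexagon is plotted by section, with a black line at the section's median, for the 6 members called in any comparison. The medians of Pcdh19 reach 232 CPM in section 287 and those of Pcdh11x fall to 63.3 CPM in section 239, against 412 CPM in section 95.

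A straight anterior-posterior slope, fitted on counts summed over each of the 8 sections, was called for 0 of the 62 members, against 0.244% of all genes (0.113% higher and 0.131% lower at larger coordinates), with 7 members at an unadjusted p under 0.05, against 16.7% of all genes. By DESeq2, 1 member was called. This was Pcdh18, a delta-2 protocadherin, with an edgeR slope of 0.64 per 100 units (adjusted p = 0.0704). Fitted over hexagons, which share a section's coordinate, the slope was called for 2 members, Pcdh11x and Pcdh17. The share of all genes called by DESeq2 or over hexagons is not given here, so neither count is a result about the members.

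The 5 members with section calls form 10 pairs, whose r on the log2(CPM + 1) scale is given as a description over 82 hexagons that share sections, library sets and depth. Pcdh11x and Pcdh17 had r = 0.65, and 0.55 after section means were removed. Pcdh11x and Pcdh19 had r = -0.59, and -0.47 after section means were removed. Cdh2 and Pcdh20 had r = 0.54 both before and after. Pcdh19 had r = 0.44 with Pcdh20 and 0.21 after the removal, -0.44 and then -0.27 with Pcdh17, and 0.39 and then 0.26 with Cdh2. With Cdh2, Pcdh11x had r = -0.30 and then -0.14, and Pcdh17 had r = -0.23 and then -0.03. With Pcdh20, Pcdh11x had r = -0.23 and then -0.01, and Pcdh17 had r = -0.24 and then -0.06. All 10 pairs kept their sign after the removal, and in 3 of them r then lay between -0.06 and -0.01. Without the 5 low-depth libraries, section means kept, Cdh2 had r = -0.57 with Pcdh11x and -0.59 with Pcdh17. Pcdh20 then had -0.40 with Pcdh11x and -0.48 with Pcdh17. Pcdh19 had -0.61 with Pcdh11x, 0.53 with Pcdh20, -0.49 with Pcdh17 and 0.47 with Cdh2. Pcdh11x and Pcdh17 had 0.55, and Cdh2 and Pcdh20 had 0.53.

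Among all genes tested, those most like Pcdh19 over the 82 hexagons were Npy6r (r = 0.64), Synpr (0.61) and Cadps2 (0.61). Those most like Cdh2 were Parm1 (0.73), Syt10 (0.69) and Scg2 (0.69). Those most like Pcdh20 were Tmem51 (0.63), Cadps2 (0.62) and Igfbp5 (0.62). For Pcdh11x they were the transcription factor gene Mef2c (0.76), the synaptic vesicle calcium sensor Syt1 (0.72) and Cplx2 (0.70), and for Pcdh17 Syngr1 (0.72), Ldha (0.70) and Ap2a2 (0.70). For Pcdh9 they were Uqcr10 (0.79), Tubb2a (0.78) and Fxyd6 (0.77), and for Cdh13 Apbb2 (0.79), Pea15a (0.75) and Ncor1 (0.71). Depth and cell type moved with these genes to differing degrees. Pcdh9 had r = 0.47 with the number of genes detected, and -0.16 without the 5 low-depth libraries, while Cdh13 had 0.58 and 0.25. Pcdh17 had 0.34 and -0.11, Cdh2 0.34 and 0.06, Pcdh11x 0.32 and 0.03, Pcdh20 0.18 and 0.04, and Pcdh19 -0.01 and 0.01. Pcdh9 also had r = 0.62 with the summed neuron markers and 0.58 with the summed oligodendrocyte markers, and without those libraries 0.28 and 0.29. With the neuron markers, before and after leaving those libraries out, Pcdh17 had 0.50 and 0.21, Cdh13 0.35 and -0.11, and Pcdh11x 0.35 and 0.10. Cdh2 had 0.08 and -0.24, Pcdh20 0.02 and -0.20, and Pcdh19 -0.06 and -0.02. The part of depth and cell type in these likenesses was not tested.

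Of the 38 clustered protocadherins tested, 0 were called between sections and 0 along the medial-lateral coordinate, against 4.1% and 1.38% of all genes. Along the dorsal-ventral coordinate 1 was called, Pcdhga2, against 0.793%. Most had low counts, so the lack of a call does not show an even level. Because reads of the shared exons may be split among genes, the counts of each cluster were also summed. Members of Pcdha share a median of 53.4% of their exon bases with other members, those of Pcdhg 44.6% and those of Pcdhb 0. The Pcdhg sum was 131, 366 and 632 CPM (lowest, median and highest over 82 hexagons), the Pcdhb sum 32.8, 185 and 415 CPM and the Pcdha sum 15.3, 91.4 and 197 CPM. The sums were above 0 in every hexagon. The lowest Pcdhg and Pcdhb sums are those of the library of 11905 counts and rest on few counts.

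None of the 3 sums was called in any of the 5 comparisons. Their dorsal-ventral slopes were 0.05 ± 0.050 for Pcdha, 0.09 ± 0.037 for Pcdhb and 0.07 ± 0.030 for Pcdhg (SE, adjusted p = 0.935, 0.426 and 0.470). Their medial-lateral slopes were -0.19 ± 0.076, -0.15 ± 0.058 and -0.10 ± 0.046 (adjusted p = 0.239, 0.217 and 0.334). All 3 were thus negative along the medial-lateral coordinate, without passing the test, and the unadjusted p was 0.0144 for Pcdha, 0.0118 for Pcdhb and 0.0285 for Pcdhg. Library set partly follows that coordinate within sections.

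Within clusters the counts were uneven. Shares are of raw counts and depend on gene length, so medians per length are given after them. In Pcdha the C-type gene Pcdhac2 held 34.6% of 5582 counts, followed by a Pcdha11 entry (ENSMUSG00000102206.5, the symbol has a second entry) at 14.6% and Pcdha12 at 12.3%. Pcdhac2 had the most counts in 28 of the 40 hexagons with 50 or more Pcdha counts. In Pcdhg, Pcdhga7 held 15.5% of 21854 counts, the C-type genes Pcdhgc5 12.97% and Pcdhgc4 10.5%. These 3 led in 27, 20 and 13 of 78 hexagons with 50 or more Pcdhg counts. In Pcdhb the largest shares were those of Pcdhb19 at 11.96%, Pcdhb14 at 10.9% and Pcdhb16 at 10.2% of 10842 counts, and 14 different genes led in 65 hexagons. Per length, Pcdhac2 had the highest median in Pcdha, 4.41 RPKM, and Pcdhga7 in Pcdhg, 9.98 RPKM, followed by Pcdhgc4 at 5.94 and Pcdhgc5 at 5.52 RPKM. In Pcdhb the order changed: Pcdhb16 had the highest median, 3.02 RPKM, and Pcdhb9 the highest mean, 4.34 RPKM, while Pcdhb19 and Pcdhb14, with gene lengths of 7138 and 8695 bases, had medians of 2.25 and 1.72 RPKM. Pcdhb1, which lies apart at the start of its cluster, had 6 counts in 3 hexagons.

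C-type genes together made up 40.3% of Pcdha counts and 27.3% of Pcdhg counts. Over the 8 sections with 4 or more hexagons, the C-type share of Pcdhg lay between 22.5% in section 383 and 31.5% in section 47. That of Pcdha was 32.5% to 46.5% in 7 sections and 12.1% in section 47, where it was 26 of 214 counts in 4 hexagons. The shares are sums over hexagons and were not tested.

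**Figure D5:**
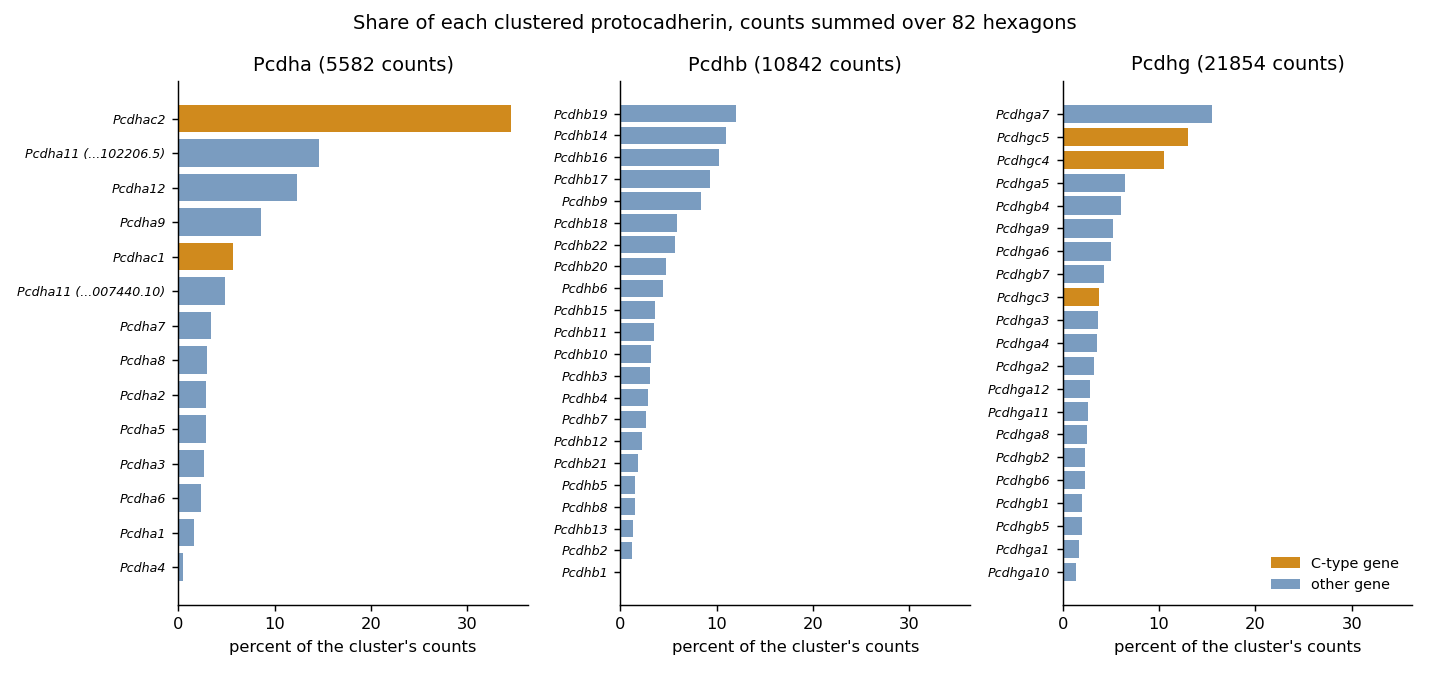
Bars give each gene's percent of its cluster's counts summed over the 82 hexagons, with the C-type genes in orange. Pcdhac2 holds 34.6% of Pcdha, the Pcdhg counts are led by Pcdhga7 at 15.5%, and the highest share in Pcdhb is 11.96%.

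The number of cluster genes seen in a hexagon depends on depth, so it was computed for 100000 counts per library, with 1 library too shallow. The median hexagon then had 4.30 of 14 Pcdha genes, 7.19 of 22 Pcdhb genes and 12.4 of 21 Pcdhg genes, against 19.1 of the 35 unclustered members. Unthinned, the medians were 6.5, 10.5, 17 and 23. The spread between hexagons around the fitted positions was high for clustered genes. The median biological coefficient of variation was 1.67 for Pcdhb, 1.23 for Pcdha and 1.15 for Pcdhg, against 0.837 for unclustered members and 0.682 for all genes tested. The clustered genes had lower mean levels (medians of 10.5, 13.3 and 13.3 CPM, against 39.1 CPM for unclustered members and 38.5 CPM for all genes), and the part of level in this difference was not tested.

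Genes that work with cadherins were followed along the same axes. Of all genes, 0.793% were called along the dorsal-ventral, 1.38% along the medial-lateral and 0.244% along the anterior-posterior coordinate. The joint test called 2.03% and the section differences 4.1%. At these shares, no call in a list this short says little about its genes. Of 10 catenins and junction linkers, 9 were tested and 0 were called in the 5 comparisons, with Ctnnb1, the beta-catenin gene, at a mean of 189 CPM. Of the 9 WAVE complex genes 9 were tested, and 1 was called in 1 comparison, Brk1 between sections (adjusted p = 0.00633, where 4.1% of all genes were called), while Cyfip2, at 348 CPM, was not called. Of 10 proteases and kinases that cleave or bind clustered protocadherins, 9 were tested and 0 were called. Of 10 regulators of the cluster promoters, among them Ctcf and the cohesin genes Rad21 and Smc3, 9 were tested and 0 were called. Of 21 other genes of the cadherin superfamily, 11 were tested and 1 was called, the giant cadherin Fat1 between sections (adjusted p = 0.0466), in the same comparison with 4.1% of all genes called. The calsyntenins Clstn3 and Clstn1, at means of 294 and 274 CPM, were not called. At an unadjusted p under 0.05 along the dorsal-ventral coordinate, against 8.46% of all genes, there were 1 catenin, 2 WAVE, 2 protease or kinase, 1 promoter regulator and 0 other superfamily genes. Along the medial-lateral coordinate, against 11.7%, there were 1, 1, 0, 1 and 2 in the same order, and along the anterior-posterior coordinate, against 16.7%, there were 1, 4, 1, 0 and 3. The catenin with the dorsal-ventral count was Ctnnd2, whose slope was -0.14 (adjusted p = 0.143).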

How the data were processed

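RNA was measured in 82 laser-captured hexagons. The authors deposited whole-number counts per gene, and the deposited RPKM table equals those counts per gene length and library total, to within a relative deviation of 5.3e-15, so it gives levels between genes and no independent evidence. Gene length, in bases, is the authors' column. GRCm38, STAR and bcl2fastq 2 appear in the submitters' processing notes. For the counting program and strand setting nothing is given in the sources used here, and 19 members overlap an exon on the other strand, 6 of them unclustered (Pcdh19, Pcdh10, Pcdh7, Pcdh8, Cdh8 and Cdh9), so reads of the strands may be mixed.

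Symbols were joined to counts by gene ID, and coordinates come from GENCODE M21 on GRCm38. Genes that reached 10 counts in at least 10 libraries were fitted with edgeR 4.0.16 in R 4.3.3 (TMM, robust quasi-likelihood, Benjamini-Hochberg over 11469 genes, threshold 0.05). Slopes were fitted with section as a factor and the other coordinate as a covariate, the section differences with both coordinates, and the anterior-posterior slope on 8 section sums. The SE of a slope is its size divided by the square root of the test's F value. Signs of slopes in single sections come from separate least-squares fits of log2(CPM + 1) on both coordinates. The smallest such section has 4 hexagons. The 3 summed clusters entered as added features. The lone hexagon of section 431 adds nothing to slopes. The models were also run on simulated counts. These were drawn for each hexagon by itself, without shared effects of section, library set or animal. That run cannot show how such effects act on the p-values. Alternatives were other scalings (library size, RLE), DESeq2 1.42.0, other filters, leaving out low-depth libraries, library set or genes detected as covariates, and leaving out sections or hexagons of section 47. Correlations used log2(CPM + 1) and carry no p. Named in depth were members called in any comparison, the 6 unclustered and 3 clustered members of highest median RPKM, and Cdh5, Pcdh12, Cdh2, Pcdh15 and Cdh20. Cluster genes were thinned by the hypergeometric expectation. The members and lists were chosen with earlier results of these data known. Counting error limits members of low counts most.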

Additional observations from a re-analysis of the deposited data

Results flagged for a closer look

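In 2 of 18 groups of hexagons checked, 1 hexagon stood far from the others of its section, where chance alone marks about 1 group in 20. Both were in section 383, which has 6 hexagons. Pcdh17 had 209 CPM in hexagon 1 of that section, while the other 5 lay between 24.9 and 90.5 CPM. That library had 1664132 counts. Pcdhga2 had 28.7 CPM in hexagon 3, a library of 1142419 counts, while the others lay between 0 and 9.05 CPM.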

How the results depend on the processing

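The dorsal-ventral calls of Pcdh19 (slopes 0.23 to 0.27) and Cdh2 (0.15 to 0.22) held in all 20 alternatives, and no named slope changed sign. The number of members called along the dorsal-ventral coordinate was 4, 3 to 6 over 8 changes of processing, and 2 to 5 when a section or a hexagon of section 47 was left out. Along the medial-lateral coordinate it was 1, 0 to 1 with such samples left out, 5 without the count filter and 0 with library set as a factor. For the joint test it was 4, 3 to 5 with samples left out and 15 without the filter. For section differences it was 5, 4 to 5 with samples left out, 12 without the filter and 0 with library set as a factor. For the anterior-posterior slope it was 0, 0 with sections left out, 2 over hexagons and 1 by DESeq2. For these settings and most others the share of all genes called is not given here, so the counts are no result about the members. Without the filter 21396 genes were tested, many with counts in few hexagons, and the share of all genes called was 3.73% (dorsal-ventral), 4.26% (medial-lateral), 16.5% (joint test) and 21.7% (sections). The summed clusters stayed on the same side of the threshold in all 37 alternative values. At 200000 counts, the median number of genes detected was 5.65 for Pcdha, 9.35 for Pcdhb, 15.1 for Pcdhg and 21.1 for unclustered members. Unthinned it was 6.5, 10.5, 17 and 23. For the single members, 287 results kept their side of the threshold, 28 lost a call and 4 gained one. DESeq2 gave no p for Pcdhga2 in the joint test. The cause of these changes was not tested. Low counts limit what can be said of Pcdhga2 and most clustered genes. No paired analysis was possible because replicate numbers here follow accession order only and pair no hexagons.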
